A study of Arabidopsis thaliana with 11 samples.

Results

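The aquaporins are the water and small-solute channels of the cell's membranes, and Arabidopsis thaliana has 35 genes for them in the gene table analysed here. They were listed by locus identifier as the PIP, TIP, NIP and SIP families, with earlier results of these data known but no threshold on a measured value, and all 35 are among the 33602 genes listed. Gene names follow the usual nomenclature with a hyphen in place of its semicolon, as in PIP2-1. The study compared whole seedlings of ecotype Columbia with raised or lowered levels of the polypyrimidine tract-binding proteins PTB1, PTB2 and PTB3, which bind RNA and regulate splicing. The groups were OE1 (overexpression of PTB1, At3g01150), OE2 (overexpression of PTB2, At5g53180), OE3 (overexpression of PTB3, At1g43190), MI12 (PTB1 and PTB2 lowered through a miRNA), MI3 (PTB3 lowered through a miRNA) and WT. Plants of each group were 11 days old and grew in continuous light on medium with 2% sucrose. The labels give 1 line number per transgenic genotype, and the promoters of the constructs were not given in the sources used here. MI3 has 1 of the 11 libraries and the other 5 groups have 2 each, but the table holds 1 RPKM value per gene and genotype. There was therefore no spread between replicates and no test for any difference described.

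Each aquaporin forms a pore in a membrane, and water or a small solute passes down its own gradient. Plasma membrane intrinsic proteins (PIPs) carry water across the outer membrane of the cell; members of the PIP1 group generally reach that membrane together with a PIP2 partner. Tonoplast intrinsic proteins (TIPs) sit mostly in the membrane of the vacuole, nodulin 26-like intrinsic proteins (NIPs) also pass boric acid, arsenite or other uncharged solutes, and small basic intrinsic proteins (SIPs) lie in the endoplasmic reticulum. In seedlings, PIPs and TIPs carry much of the water uptake of the root and of the turgor-driven growth of cells.

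The pore is lined by a pair of short motifs, usually asparagine, proline and alanine (NPA), and the coding DNA of the motifs shows how the subfamilies differ. Windows of 27 coding bases were read from the TAIR10.1 genome by RefSeq gene models, and all coordinates are of that build. They are printed 5′ to 3′ with the 9 bases of the motif in capitals, for PIP2-1, TIP2-1 and NIP2-1, which are described most below, and for the 9 departures from NPA.
PIP2-1, first motif, chr3:19804651-19804677, minus strand: ggtcacattAACCCAGCGgtgacattt
TIP2-1, first motif, chr3:5505874-5505900, plus strand: ggccatgtgAACCCAGCCgtcactttt
NIP2-1, first motif, chr2:14515334-14515360, minus strand: gcacatttcAATCCTGCTgtcactctt
NIP1-1, second motif, chr4:10421905-10421931, minus strand: gcgtcgatgAATCCAGGAagaagttta
NIP1-2, second motif, chr4:10367973-10367999, plus strand: gcatcgatgAATCCAGGAcgaagttta
NIP5-1, first motif, chr4:6432360-6432386, minus strand: gctcacctaAACCCATCActgaccata
NIP5-1, second motif, chr4:6431686-6431712, minus strand: ggatctatgAATCCTGTGagaactcta
NIP6-1, second motif, chr1:30350793-30350819, minus strand: gcttcgatgAACCCTGTAagaacactg
NIP7-1, first motif, chr3:1842429-1842455, minus strand: gcccatcttAACCCTTCCatcaccatt
SIP1-1, first motif, chr3:1073807-1073833, minus strand: gctagcttcAATCCTACCggaagcgct
SIP1-2, first motif, chr5:6056177-6056203, minus strand: gctagcttcAATCCTTGTggaaacgca
SIP2-1, first motif, chr3:21079423-21079449, minus strand: gggctttatAATCCTTTGaccgctttg
The last capital codon of the first motif encoded alanine in 30 of the 35 genes, serine in NIP5-1 and NIP7-1, threonine in SIP1-1, cysteine in SIP1-2 and leucine in SIP2-1. At the second motif it encoded alanine in 31 genes, glycine in NIP1-1 and NIP1-2 and valine in NIP5-1 and NIP6-1. All 13 PIP and all 10 TIP genes had alanine at both positions. The departures lay in 5 of the 9 NIP genes and in the 3 SIP genes, at the first motif in the SIP genes.

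Every line differed from WT in its targeted gene, in the direction of its label. PTB1 was at 603 RPKM in OE1 and 2.54 in MI12, against 9.46 in WT. PTB2 was at 343 RPKM in OE2 and 4.01 in MI12, against 9.03 in WT. PTB3 was at 65.4 RPKM in OE3 and 3.54 in MI3, against 19.5 in WT. As for the labelled whole seedlings, all 8 shoot markers were at 472 RPKM or more in every genotype and the 12 root tissue markers summed to 462 RPKM or more. Depth was estimated from the steps of the low values at 46.2 M reads (mega-reads) in MI3 and 79.2 to 95.7 M in the others. The ratio of each member counted as apart below carries its 95% exact counting interval, from reads recovered in this way. It covers the error of counting alone, as several reads may stem from 1 molecule where no molecular identifiers are used, and differences between plants are not in it.

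Aquaporin transcripts were abundant in all genotypes and were dominated by a few PIP and TIP genes. The 35 genes summed to 2690.4 RPKM in OE1, 3828 in OE2, 3437 in OE3, 4054 in MI12 and 3297 in MI3, against 3684 RPKM in WT. The highest single member was TIP1-2, a vacuolar water channel, in every genotype but MI3, where it was PIP1-2. This order is per kilobase of gene span. Per exonic kilobase, PIP1-2 was also first in OE1, at 581, against 577 for TIP1-2. TIP1-2 (AT3G26520, chr3:9722443-9723904, minus strand) was at 509 RPKM in OE1, 927 in OE2, 661 in OE3, 847 in MI12 and 582 in MI3, against 767 RPKM in WT. PIP1-2, a plasma membrane channel of leaf and root, was at 488 RPKM in OE1, 525 in OE2, 523 in OE3, 590.0 in MI12 and 604 in MI3, against 523 RPKM in WT. PIP1-2 thus varied little, its highest value being 1.24 times its lowest, the smallest such ratio among the 28 members compared below.

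The next places in WT, again per span, were held by TIP2-1, PIP2-7 and PIP1-3. PIP2-7, one of the main plasma membrane water channels, was at 303 RPKM in OE1, 437 in OE2, 374 in OE3, 470.2 in MI12 and 279.8 in MI3, against 405 RPKM in WT. PIP1-3 (AT1G01620, chr1:225665-227543, minus strand) was at 210.0 RPKM in OE1, 279 in OE2, 259 in OE3, 322 in MI12 and 196 in MI3, against 300.3 RPKM in WT. Both were lowest in MI3, and OE1 was the second lowest. The other PIP1 genes were of middle level. PIP1-1 was at 113 RPKM in OE1, 121 in OE2, 142 in OE3, 156 in MI12 and 134 in MI3, against 129 RPKM in WT. PIP1-4 was at 64.5 RPKM in OE1, 97.3 in OE2, 77.7 in OE3, 89.6 in MI12 and 86.2 in MI3, against 91.5 RPKM in WT. PIP1-5 (AT4G23400, chr4:12220641-12222468, plus strand) was at 90.1 RPKM in OE1, 111 in OE2, 136 in OE3, 161 in MI12 and 131 in MI3, against 113 RPKM in WT. OE1 was the lowest genotype for all of these. PIP2-6, a PIP2 gene of the leaf vasculature, was at 104 RPKM in OE1, 146 in OE2, 106 in OE3, 108 in MI12 and 139.6 in MI3, against 124 RPKM in WT. PIP2-8, a close relative of PIP2-7, was at 8.02 RPKM in OE1, 10.2 in OE2, 8.32 in OE3, 9.25 in MI12 and 8.09 in MI3, against 9.76 RPKM in WT. These 5 PIP genes all had their lowest level in OE1 here, whereas their highest lay in MI12 or OE2.

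**Figure D1:**
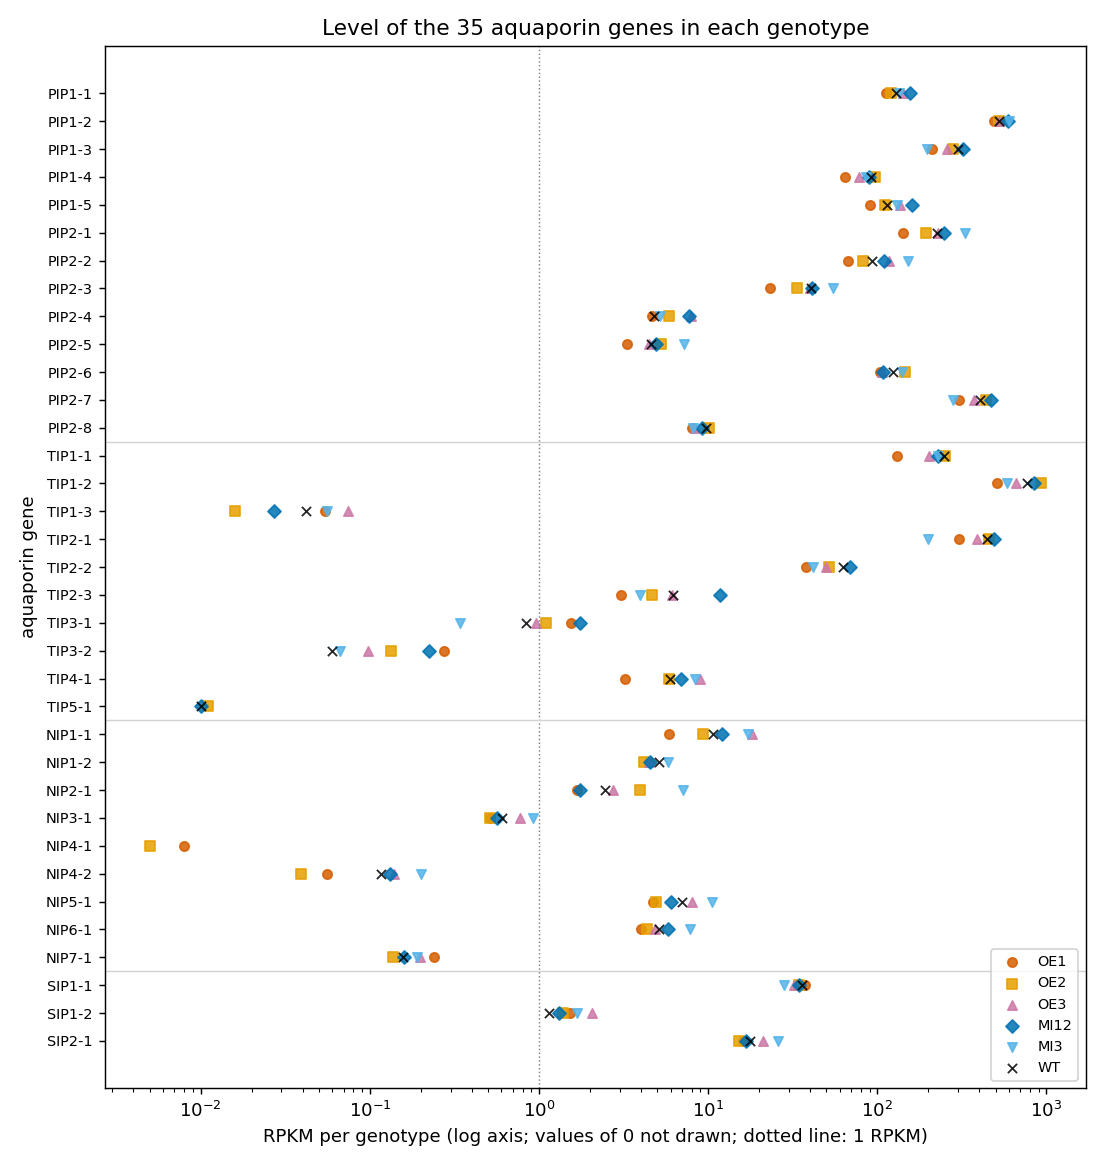
RPKM of the 35 aquaporin genes (rows, by subfamily) in the 6 genotypes, 1 point per genotype on a log axis, with points at 0 not drawn. Levels span from 0.0110 RPKM or less for TIP5-1 and NIP4-1 to 927 RPKM for TIP1-2 in OE2, and the OE1 points lie at the left of most PIP and TIP rows.

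By subfamily, PIP genes held 60.3% of the family's summed level in OE1, 53.5% in OE2, 58.9% in OE3, 57.2% in MI12 and 64.5% in MI3, against 56.1% in WT. TIP genes held most of the rest, between 32.3% in MI3 and 44.4% in OE2, with 41.6% in WT. The 9 NIP genes summed to 21.6 RPKM in OE1, 27.4 in OE2, 39.2 in OE3, 31.1 in MI12 and 49.8 in MI3, against 31.3 RPKM in WT. The sum of the 3 SIP genes was the steadiest, between 51.2 RPKM in OE2 and 55.5 RPKM in OE3, and 54.8 in WT. Its members were less steady, the highest value being 1.34 times the lowest for SIP1-1, 1.80 times for SIP1-2 and 1.70 times for SIP2-1. The TIP sum was low in OE1 and MI3, and the NIP sum was low in OE1 and high in MI3. These levels are per kilobase of gene span, introns included, which lowers the figure for an intron-rich gene such as NIP5-1 relative to TIP1-1. Rescaled to exonic length, the PIP share was 56.95% and the TIP share 40.1% in WT.

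**Figure D2:**
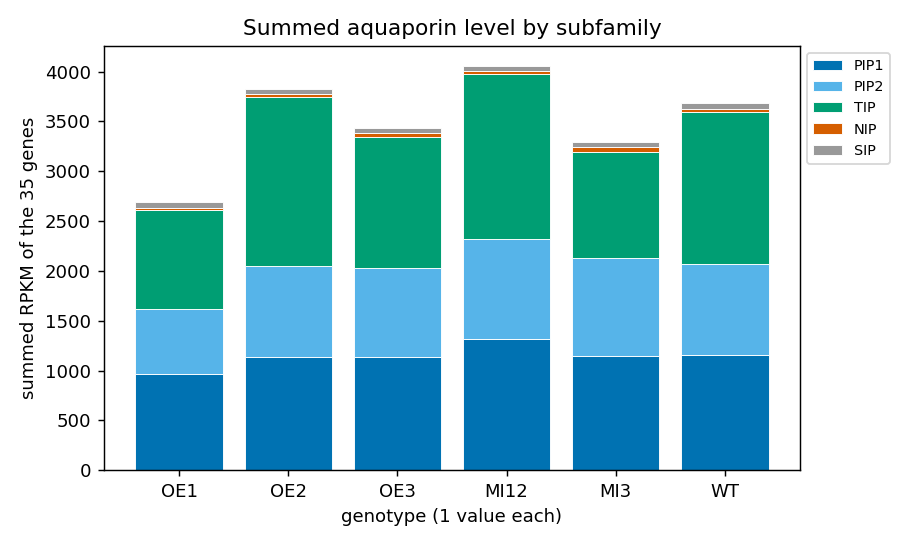
Summed RPKM of the 35 genes in each genotype, stacked by subfamily (1 value per genotype, no error bars). The total is lowest in OE1, at 2690.4 RPKM, and highest in MI12, at 4054 RPKM, and the TIP part is smallest in OE1 and MI3.

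Differences were compared on the log2(RPKM + 1) scale, which understates the change of low genes, for genes with 1 RPKM or more in 2 or more genotypes. This left 28 of the 35 aquaporins among 19669 genes: all 13 PIP genes, 7 of 10 TIP, 5 of 9 NIP and 3 of 3 SIP. TIP1-3, TIP3-2, TIP5-1, NIP3-1, NIP4-1, NIP4-2 and NIP7-1 were too low. TIP3-1 passed only through OE1, OE2 and MI12, where it was highest, so a positive difference there was bound to follow. A member was counted as apart when it differed by at least 1.5-fold on that scale, and the share of all compared genes past the same bound is given as the background. All counts below are on that scale. In comparisons between single genotypes, members whose RPKM ratio passed a bound that this scale did not are named. The comparisons with WT share the WT column, so they are not independent of each other.

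In seedlings overexpressing PTB1 (OE1), aquaporins were below WT as a family. Of the 28 compared members, 8 were at least 1.5-fold lower, with a background of 3.83% of all genes, and 0 at least 1.5-fold higher, with a background of 1.41%. None passed 2-fold on this scale, where the background was 0.6% lower and 0.31% higher. By RPKM ratio, TIP2-3 was past 2-fold lower, at 0.487, and TIP3-1 past 1.5-fold higher, at 1.84, a sign bound to follow from the filter. The median difference was -0.40 for the 28 members and -0.01 for all genes, and 25 of 28 members (89.3%) were below WT, as were 51.1% of all genes. All 13 PIP genes and all 5 compared NIP genes were on that side. The PIP median was -0.38, the NIP median -0.36, the TIP median -0.71, and the SIP median 0.06.

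Of the 8 members, 5 were TIP genes, and TIP1-1 and TIP2-3 were furthest from WT. TIP1-1, a major water channel of the vacuole (AT2G36830, chr2:15445294-15446621, plus strand), was at 131 RPKM in OE1, 250.2 in OE2, 203 in OE3, 228 in MI12 and 229 in MI3, against 247 RPKM in WT. OE1 was thus at 53.2% of WT (ratio 0.532, counting interval 0.522 to 0.542, difference -0.91), while the other genotypes lay between 203 and 250.2 RPKM. TIP2-2, a channel found mainly in roots (AT4G17340, chr4:9698940-9700472, plus strand), was at 38.04 RPKM in OE1, 51.7 in OE2, 50.03 in OE3, 68.7 in MI12 and 41.7 in MI3, against 62.9 RPKM in WT. TIP2-3, also mainly a root gene and able to pass ammonia (AT5G47450, chr5:19248249-19249622, minus strand), was at 3.03 RPKM in OE1, 4.65 in OE2, 6.10 in OE3, 11.8 in MI12 and 3.94 in MI3, against 6.23 RPKM in WT. TIP4-1, another root TIP (AT2G25810, chr2:11012499-11014171, plus strand), was at 3.24 RPKM in OE1, 5.88 in OE2, 8.94 in OE3, 6.95 in MI12 and 8.40 in MI3, against 5.96 RPKM in WT. OE1 was the lowest of the 6 genotypes for all of these, at 60.5% of WT (ratio 0.605, counting interval 0.585 to 0.626, difference -0.71) for TIP2-2, 48.7% of WT (ratio 0.487, counting interval 0.431 to 0.550, difference -0.84) for TIP2-3 and 54.3% of WT (ratio 0.543, counting interval 0.487 to 0.605, difference -0.72) for TIP4-1. TIP1-2, whose levels are given above, was at 66.4% of WT (ratio 0.664, counting interval 0.658 to 0.671, difference -0.59), just past the bound. It lost the call with median-of-ratios scaling (-0.58) and, with TIP2-2, when the other 4 lines replaced WT (-0.55 for TIP1-2, -0.41 for TIP2-2).

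Among plasma membrane channels, PIP2-1 and PIP2-3 were past 1.5-fold in OE1. PIP2-1, a water channel of roots and guard cells (AT3G53420, chr3:19803473-19805730, minus strand), was at 142 RPKM in OE1, 195 in OE2, 229 in OE3, 248 in MI12 and 329 in MI3, against 226 RPKM in WT. OE1 was lowest and MI3 highest, and OE1 stood at 62.8% of WT (ratio 0.628, counting interval 0.619 to 0.637, difference -0.67). PIP2-3 (AT2G37180, chr2:15617635-15619155, plus strand) was at 23.3 RPKM in OE1, 33.3 in OE2, 40.3 in OE3, 40.9 in MI12 and 54.98 in MI3, against 40.7 RPKM in WT, which put OE1 at 57.2% of WT (ratio 0.572, counting interval 0.548 to 0.597, difference -0.78). Its neighbour and near-copy PIP2-2, linked to water flow in roots (AT2G37170, chr2:15613368-15615022, minus strand), was at 67.3 RPKM in OE1, 81.9 in OE2, 117 in OE3, 110.2 in MI12 and 151 in MI3, against 92.9 RPKM in WT. PIP2-2 had the same order at both ends, OE1 lowest and MI3 highest, but its difference in OE1 of -0.46 stayed within 1.5-fold. The other 10 PIP genes lay between -0.51 for PIP1-3 and -0.04 for PIP2-4.

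NIP1-1, an arsenite-permeable channel expressed mainly in roots (AT4G19030, chr4:10421521-10423508, minus strand), was the NIP gene past 1.5-fold in OE1. It was at 5.86 RPKM in OE1, 9.32 in OE2, 18.1 in OE3, 12.1 in MI12 and 17.3 in MI3, against 10.7 RPKM in WT. OE1 was at 54.7% of WT (ratio 0.547, counting interval 0.508 to 0.589, difference -0.77), and OE3 and MI3 lay above all other genotypes. The boric acid channels NIP5-1 of the root and NIP6-1 of the young shoot were at 4.71 and 4.02 RPKM in OE1, against 7.05 and 5.15 in WT. The members of OE1 above WT were TIP3-1, SIP1-1 and SIP1-2, with differences of 0.47, 0.06 and 0.23. The sign for TIP3-1 was bound to follow from the filter.

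**Figure D3:**
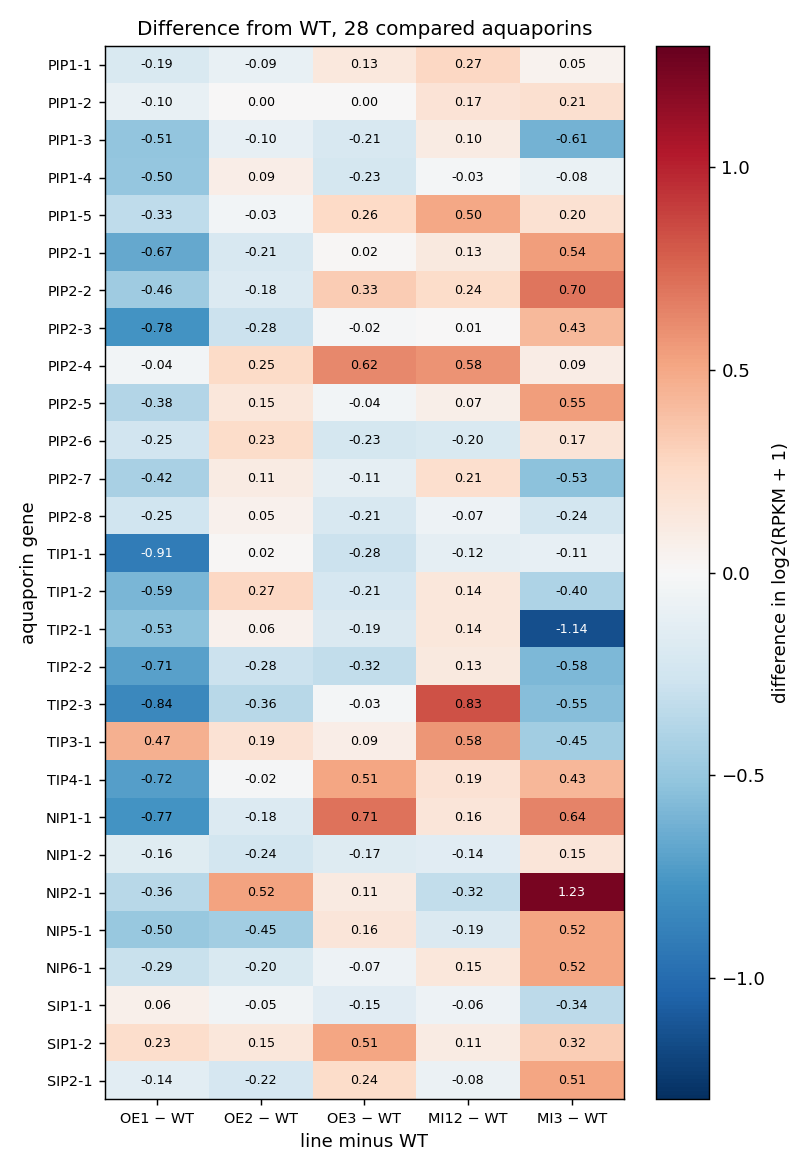
Difference of each line from WT in log2(RPKM + 1) for the 28 compared aquaporins (rows) in the 5 lines (columns), 1 value per cell. The OE1 column is blue in 25 of 28 rows, and the MI3 column holds the furthest values on both sides, -1.14 for TIP2-1 and 1.23 for NIP2-1.

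The low position of OE1 was not set by the WT column alone. OE1 held the lowest of the 6 values for 20 of 28 aquaporins (71.4%), and for 22.8% of all compared genes. When WT was replaced by the median over the remaining 4 lines, 8 members were at least 1.5-fold lower in OE1, with a background of 5.53%. Of these, 6 are shared with the 8 against WT, NIP2-1 and PIP2-2 entered, and TIP1-2 and TIP2-2 were lost. No aquaporin was lowest in OE3 or MI12, against 4.77% of all genes in OE3 and 14.4% in MI12. MI12, in which PTB1 and PTB2 are lowered, held the highest value for 8 of 28 members (28.6%), and for 12.2% of all genes. The 8 include TIP3-1, which passed the filter only through OE1, OE2 and MI12, so its high place there was bound to follow. WT was highest for 0 members and for 10.6% of all genes. MI3 was highest for 10 of 28 members (35.7%) and for 35.6% of all genes, so a highest place in MI3 was at the background. It was lowest for 5 members (17.9%) and for 24.2% of all genes.

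**Figure D4:**
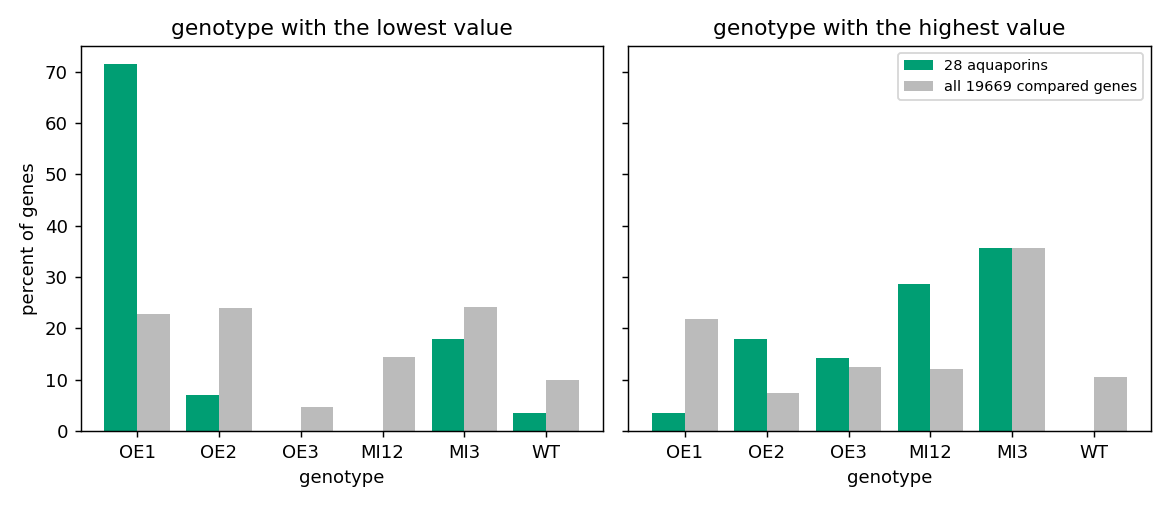
Percent of genes for which each genotype holds the lowest (left) or the highest value (right) of the 6, for the 28 compared aquaporins (green) and all 19669 compared genes (grey). OE1 is lowest for 71.4% of the aquaporins and 22.8% of all genes.

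Markers of root tissue were low in OE1 as well. The 12 root tissue markers (Casparian strip, endodermis, transporters and PYK10) summed to 462 RPKM in OE1, 620.1 in OE2, 807 in OE3, 757 in MI12 and 1695 in MI3, against 697 in WT. In OE1, 4 of the 10 compared were at least 1.5-fold lower, and the median was -0.57. The Casparian strip gene CASP1 was at 4.69 RPKM in OE1 and 9.99 in WT, and CASP2 at 3.33 RPKM in OE1 and 5.74 in WT. The phosphate transporter PHT1-1 was at 11.5 RPKM in OE1 and 21.7 in WT, and PYK10, a root beta-glucosidase, at 413 RPKM in OE1 and 626 in WT. The root transcription factors SCR and SHR were at 16.8 and 6.45 RPKM in OE1, against 15.4 and 6.64 in WT. Of 7 root hair markers, 3 were at least 1.5-fold lower in OE1 (LRX1, EXPA18 and PRP3; median -0.44). The 8 shoot markers had a median of -0.07, with 0 past 1.5-fold. Fewer cells of a type and less RNA per cell cannot be told apart in whole seedlings, and the part of root content in the aquaporin differences was not tested. Most of the sum is PYK10, and the other 11 root tissue markers summed to 49.9 RPKM in OE1 and 70.9 in WT.

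**Figure D5:**
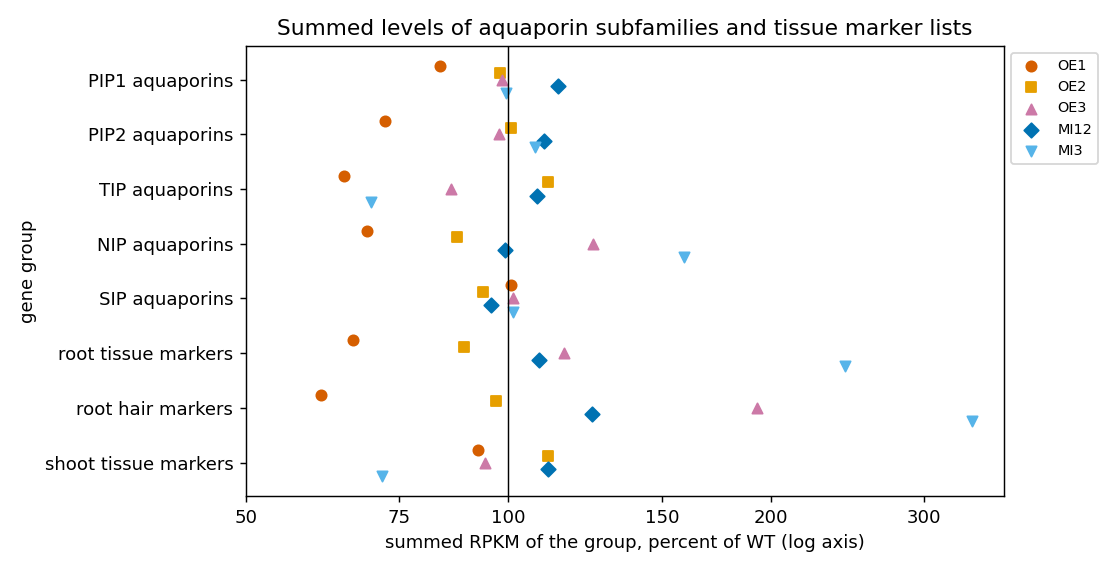
Summed RPKM of each aquaporin subfamily and tissue marker list, as percent of WT (vertical line at 100, log axis), 1 point per line. OE1 is at 64.8% for TIP genes and 66.3% for root tissue markers, and MI3 at 69.6% for TIP genes and 243% for root tissue markers, a sum made up mostly of PYK10.

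Seedlings with lowered PTB3 (MI3) showed no common direction, with NIP and TIP genes mostly on opposite sides of WT and PIP and SIP genes mixed. All 5 compared NIP genes exceeded WT (median 0.52), and 6 of 7 TIP genes were below it (median -0.45). In MI3, 56.7% of all genes were above WT and 43.2% below it, with a median of 0.05. The 6 TIP genes include TIP3-1, which was below 1 RPKM in both, at 0.340 in MI3 and 0.835 in WT. PIP1 and PIP2 genes had medians of 0.05 and 0.30. Of the PIP genes, 9 were above WT and 4 below it, and of the SIP genes 2 were above and 1 below. Of the 28 members, 3 passed 1.5-fold above WT and 2 below it, where the background was 8.99% and 6.31% of all genes, so the shares lay near the background. At 2-fold, 1 member was higher and 1 lower, with a background of 2.58% and 2.07%. MI3 stands for 1 library, and a difference of that library cannot be told apart from one of the genotype.

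The 2-fold members of MI3 were TIP2-1 and NIP2-1. TIP2-1, a vacuolar channel for water and ammonia with high levels in shoots (AT3G16240, chr3:5505360-5507050, plus strand), was at 306 RPKM in OE1, 460.0 in OE2, 387 in OE3, 488 in MI12 and 200.1 in MI3, against 442 RPKM in WT. MI3 was the lowest genotype and OE1 the next, and MI3 stood at 45.3% of WT (ratio 0.453, counting interval 0.445 to 0.460, difference -1.14). NIP2-1, a lactic acid channel that is induced in roots by lack of oxygen (AT2G34390, chr2:14514487-14515988, minus strand), was at 1.68 RPKM in OE1, 3.94 in OE2, 2.72 in OE3, 1.76 in MI12 and 7.09 in MI3, against 2.44 RPKM in WT. MI3 was the highest at a ratio of 2.90 (counting interval 2.53 to 3.35), and OE2 came next. HRA1, a hypoxia-responsive regulator linked to root water permeability, was at 23.6 RPKM in MI3 and 7.17 in WT, and between 6.59 and 9.91 in the other lines. TIP2-1 and NIP2-1 both overlap other genes on the opposite strand, TIP2-1 over 120 bases of AT3G16250 and 445 of AT3G03265, NIP2-1 over 30 bases of AT2G34380 and 1432 of AT2G08660. AT3G16250 was at 11.02 RPKM in MI3 and 16.9 in WT, and AT2G34380 at 6.66 RPKM in MI3 and 6.08 in WT. The other two are not analysed here. The library kit named in the labels does not mark strand, so reads of these pairs cannot be told apart. TIP3-1, TIP3-2, TIP5-1, NIP6-1, SIP1-2 and SIP2-1 also overlap genes on the opposite strand, with the same limit. NIP6-1 does so over 26 bases. TIP3-1 shares 290 bases with AT1G73200, SIP1-2 444 with AT5G18300 and SIP2-1 147 with AT3G56940. In WT these 3 other genes were at 22.9, 2.51 and 451 RPKM, in that order.

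The remaining members past 1.5-fold in MI3 were NIP1-1 and PIP2-2 above WT and PIP1-3 below it. NIP1-1 lost the call with median-of-ratios scaling (0.58), and PIP1-3 when the other 4 lines replaced WT (-0.45). With that control, NIP5-1, NIP6-1, PIP2-1 and SIP2-1 entered, to make 7 higher, with a background of 9.40%. Relative to WT, NIP1-1 had a ratio of 1.61 (counting interval 1.51 to 1.72). PIP2-2 had a ratio of 1.63 (counting interval 1.59 to 1.67), and PIP1-3 had a ratio of 0.653 (counting interval 0.642 to 0.665). Just short of the bound were PIP2-5, PIP2-1, NIP5-1 and NIP6-1 above WT, with differences of 0.55, 0.54, 0.52 and 0.52, and TIP2-2, TIP2-3 and PIP2-7 below it, with -0.58, -0.55 and -0.53. The boric acid channel NIP5-1 (AT4G10380, chr4:6431161-6435396, minus strand) was at 4.71 RPKM in OE1, 4.89 in OE2, 7.97 in OE3, 6.04 in MI12 and 10.5 in MI3, against 7.05 RPKM in WT. NIP6-1 (AT1G80760, chr1:30350539-30352208, minus strand) was at 4.02 RPKM in OE1, 4.37 in OE2, 4.86 in OE3, 5.81 in MI12 and 7.80 in MI3, against 5.15 RPKM in WT. MI3 was highest for both, and the boron exporter BOR2 was also highest there, at 36.02 RPKM against 19.2 in WT. MI3 held the highest value for 35.6% of all compared genes. The boron exporters had no common direction in MI3. BOR5 was at least 1.5-fold lower, at 1.80 RPKM against 3.53 in WT, and the median of the 4 compared was 0.06. PIP2-5, a low plasma membrane channel, was at 3.32 RPKM in OE1, 5.23 in OE2, 4.47 in OE3, 4.91 in MI12 and 7.20 in MI3, against 4.62 RPKM in WT. With median-of-ratios scaling, which moves all MI3 values down, 5 members in place of 2 were at least 1.5-fold lower in MI3, as PIP2-7, TIP2-2 and TIP2-3 entered. The background was then 7.43%. By RPKM ratio, PIP2-5 and NIP6-1 were past 1.5-fold higher (1.56 and 1.51), and TIP2-2 and TIP2-3 past 1.5-fold lower (0.663 and 0.632). TIP3-1 was past 2-fold lower, at 0.407 (counting interval 0.247 to 0.653), with both values below 1 RPKM.

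Beside these differences, root hair markers were high in MI3, while the root tissue list was mixed. The root tissue list had a median of 0.17, with 2 of 10 at least 1.5-fold higher, namely PHT1-1 at 56.6 RPKM in MI3 and 21.7 in WT and PYK10 at 1583 RPKM in MI3 and 626 in WT. Without these, the other 10 markers summed to 55.8 RPKM in MI3 and 49.2 in WT. Root hair markers had a median of 1.22 with 6 of 7 past the bound, and summed to 209 RPKM in MI3 and 61.5 in WT. Shoot markers had a median of -0.40, and summed to 9236 RPKM in MI3 and 12879 in WT. Among them, RBCS1A of Rubisco and RCA of Rubisco activase were at least 1.5-fold lower. CASP1 was at 10.9 RPKM in MI3 and 9.99 in WT, and CASP5 at 0.945 RPKM in MI3 and 1.49 in WT. Their part in the aquaporin differences was not tested.

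In seedlings with lowered PTB1 and PTB2 (MI12), the family lay slightly above WT. The median of the 28 members was 0.13, that of all genes -0.01, and 19 members (67.9%) were above WT, as were 48.4% of all genes. The 19 include TIP3-1, for which a positive difference was bound to follow from the filter. TIP2-3 was the 1 member at least 1.5-fold higher, with a background of 1.13%, at a ratio of 1.90 (counting interval 1.74 to 2.07), and 0 were at least 1.5-fold lower, with a background of 1.57%. At 2-fold, 0 members passed, with a background of 0.234% higher and 0.269% lower. By RPKM ratio, TIP3-1, with the limit just given, was past 2-fold higher, at 2.08, and PIP2-4 past 1.5-fold higher, at 1.60. PIP2-4, a root plasma membrane channel (AT5G60660, chr5:24375368-24377206, minus strand), was at 4.65 RPKM in OE1, 5.87 in OE2, 7.92 in OE3, 7.68 in MI12 and 5.18 in MI3, against 4.80 RPKM in WT. MI12 and OE3 were the high genotypes for PIP2-4, and its difference in MI12 of 0.58 lay just under the bound. PIP1-5, at 161 RPKM in MI12 and 113 in WT, had a difference of 0.50. With a pseudocount of 0.5 or 0.1 in place of 1, 3 members rather than 1 were at least 1.5-fold higher in MI12. The background was then 1.52% and 2.19%. Root tissue markers had a median of 0.17 in MI12, with 0 past the bound, and shoot markers 0.14, with 3 of 8 at least 1.5-fold higher. These are antenna genes of the photosystems, CAB3 at 1797 RPKM in MI12 and 939.7 in WT, LHCB2.1 at 1045 RPKM in MI12 and 658 in WT, and LHCB1.1 at 3411 RPKM in MI12 and 2232 in WT. Their part in the aquaporin differences was not tested.

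Set against the mean of the PTB1 and PTB2 overexpressors, MI12 had 4 of 28 aquaporins at least 1.5-fold higher, with a background of 2.62%, and 0 lower, with a background of 2.16%. These were TIP2-3 (1.43), PIP1-5 (0.68), NIP1-1 (0.64) and TIP2-2 (0.62), and TIP2-3 was past 2-fold, as were 0.325% of all genes, while 0 were 2-fold lower, with a background of 0.447%. OE1 was below OE2 for all 4, so its low level enters the mean. TIP2-3, NIP1-1 and TIP2-2 were also among the 8 members below WT in OE1. The count and the median of this comparison are therefore not independent of the OE1 result. TIP2-3 was at 3.03 RPKM in OE1, 4.65 in OE2 and 11.8 in MI12. PIP1-5 was at 90.1, 111 and 161 RPKM in that order, NIP1-1 at 5.86, 9.32 and 12.1, and TIP2-2 at 38.04, 51.7 and 68.7. MI12 was not compared with OE2 alone. Against the mean, the median was 0.35 for aquaporins and 0.03 for all genes, with 24 of 28 members (85.7%) above 0, as were 57.1% of all genes. TIP2-2 fell just short of the bound with median-of-ratios scaling. TIP4-1, at 0.56, lay just under it and passed with a pseudocount of 0.5 or 0.1. That made 5 members higher, with a background of 3.73% and 5.15%, in that order. Root tissue markers had a median of 0.46 in this comparison, with 4 of 10 at least 1.5-fold higher, and shoot markers 0.08, with 3 of 8 at least 1.5-fold higher.

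In seedlings overexpressing PTB2 (OE2), every compared aquaporin lay within 1.5-fold of WT on the log2(RPKM + 1) scale. The background was 1.36% of genes higher and 1.5% lower at 1.5-fold, and 0.259% higher and 0.183% lower at 2-fold. The median of the 28 members was -0.02, with -0.05 for all genes. In OE2, 15 of 28 members (53.6%) were below WT, as were 63.1% of all genes. The furthest values were 0.52 for NIP2-1, which was at 3.94 RPKM in OE2 and 2.44 in WT, and -0.45 for NIP5-1. By RPKM ratio, NIP2-1 was past 1.5-fold, at 1.61 (counting interval 1.40 to 1.86), and it passed on the log2 scale with a pseudocount of 0.5 or 0.1. Root tissue markers had a median of -0.18 in OE2. OE2 had the highest TIP1-2 and TIP1-1 of the 6 genotypes, whereas OE1 had the lowest of both.

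In seedlings overexpressing PTB3 (OE3), 2 of 28 aquaporins were at least 1.5-fold above WT, with a background of 2.35%, and 0 below it, with a background of 2.16%. At 2-fold, 0 members passed, with a background of 0.503% higher and 0.529% lower. NIP1-1 had a ratio of 1.69 (counting interval 1.60 to 1.79), and PIP2-4 a ratio of 1.65 (counting interval 1.51 to 1.80). With median-of-ratios scaling, or the remaining 4 lines as control, PIP2-4 lost the call. TIP4-1 and SIP1-2 lay just under the bound, at 0.51 and 0.51, though the RPKM ratio of SIP1-2 was 1.80. SIP1-2, a water channel of the endoplasmic reticulum, was at 1.52 RPKM in OE1, 1.38 in OE2, 2.06 in OE3, 1.31 in MI12 and 1.68 in MI3, against 1.14 RPKM in WT. It overlaps AT5G18300 over 444 bases, where reads cannot be told apart, and AT5G18300 was at 4.19 RPKM in OE3 and 2.51 in WT. SIP1-1 was at 37.6 RPKM in OE1, 34.7 in OE2, 32.3 in OE3, 34.3 in MI12 and 28.1 in MI3, against 35.9 RPKM in WT. SIP2-1 was at 16.1 RPKM in OE1, 15.2 in OE2, 21.2 in OE3, 16.8 in MI12 and 25.7 in MI3, against 17.8 RPKM in WT. Across the SIP genes, WT was lowest for SIP1-2, MI3 lowest for SIP1-1 and MI3 highest for SIP2-1. The family median was -0.02 in OE3, and root tissue markers had a median of 0.33, root hair markers 0.73 with 5 of 7 at least 1.5-fold higher.

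OE3 against MI3 sets raised against lowered PTB3 without the WT column, but shares the 1 MI3 library with MI3 against WT. TIP2-1 was at least 1.5-fold higher in OE3, at a ratio of 1.93 (counting interval 1.90 to 1.97), and NIP2-1 was at least 1.5-fold lower, at a ratio of 0.384 (counting interval 0.335 to 0.441). NIP6-1 was also at least 1.5-fold lower, at a ratio of 0.623 (counting interval 0.559 to 0.696). This was 1 of 28 higher and 2 of 28 lower, with a background of 3.03% and 4.71%, and NIP2-1 was past 2-fold, as were 1.15% of all genes. None was 2-fold higher, with a background of 0.763%. The TIP median was 0.26, the NIP median -0.36 and the PIP2 median -0.38. As MI3 is in both comparisons, a low or high MI3 value enters each with opposite sign. All 3 called members overlap another gene, so none is left without such members; with median-of-ratios scaling, NIP6-1 lost the call. By RPKM ratio, PIP2-4 and TIP2-3 were past 1.5-fold higher in OE3 (1.53 and 1.55), and PIP2-5 past 1.5-fold lower (0.621). TIP3-1 was past 2-fold higher, at 2.81 (counting interval 1.75 to 4.60), with both values below 1 RPKM. Shoot markers had a median of 0.34 and root hair markers -0.52 in OE3 against MI3.

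Genes for known regulators and trafficking partners of aquaporins were set beside the family. Of the 12 compared among 14, which include the kinases OST1, BAK1 and SIRK1, the ubiquitin ligases RMA1 to RMA3 and the membrane fusion protein SYP61, 0 were past 1.5-fold in OE1, OE2 or MI12, a count near the background of 1.13% to 3.83% in either direction. The medians were -0.01 in OE1, -0.03 in OE2, 0.08 in OE3, -0.0016 in MI12 and -0.01 in MI3. SYP121, a SNARE that delivers PIP proteins to the plasma membrane, was at 29.6 RPKM in OE1, 25.97 in OE2, 20.9 in OE3, 33.2 in MI12 and 18.5 in MI3, against 32.5 RPKM in WT. It was at least 1.5-fold lower in OE3 and MI3, and HRA1, given above, at least 1.5-fold higher in MI3. This made 1 of 12 lower in OE3, with a background of 2.16%. In MI3 it made 1 of 12 higher and 1 of 12 lower, near the background of 8.99% and 6.31%. Of 7 boron exporters, 4 were compared. BOR2, a boron exporter of the root, was at 11.9 RPKM in OE1, 13.9 in OE2, 28.7 in OE3, 20.8 in MI12 and 36.02 in MI3, against 19.2 RPKM in WT, at least 1.5-fold lower in OE1 and higher in MI3. BOR1, which loads boron into the xylem, stayed between 13.7 RPKM in OE1 and 17.6 in MI3. BOR5 was at least 1.5-fold lower in MI3, at 1.80 RPKM against 3.53 in WT. Of the 4 compared, 1 was thus lower in OE1, with a background of 3.83%. In MI3, 1 was higher and 1 lower, with a background of 8.99% and 6.31%. With 4 genes, such counts are too small to set apart from the background.

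Members with low levels included genes known from seed and pollen. TIP3-1 and TIP3-2 mark the storage vacuoles of seeds. TIP3-1 was at 1.54 RPKM in OE1, 1.09 in OE2, 0.955 in OE3, 1.74 in MI12 and 0.340 in MI3, against 0.835 RPKM in WT. TIP3-2 was at 0.273 RPKM in OE1, 0.133 in OE2, 0.0970 in OE3, 0.224 in MI12 and 0.0670 in MI3, against 0.0600 RPKM in WT. Both were higher in OE1 and MI12 than in the other genotypes. Both also overlap genes on the opposite strand, and reads of the shared bases cannot be told apart. The 8 seed storage and oil body markers summed to 20.8 RPKM in OE1, 12.1 in OE2, 16.8 in OE3, 43.1 in MI12 and 1.90 in MI3, against 4.59 in WT, and their part in the TIP3 levels was not tested. The pollen channels TIP1-3, TIP5-1, NIP4-1 and NIP4-2 reached at most 0.0740, 0.0110, 0.00800 and 0.202 RPKM, and of 7 pollen markers 6 were below 1 RPKM in every genotype, ANX2 being listed at 0 in each. TIP5-1 was listed at 0 in OE1, OE3 and MI3, and NIP4-1 in OE3, MI12, MI3 and WT. In WT, a count of 3 reads would be 0.0277 RPKM for TIP5-1 and 0.0111 for NIP4-1, and the values above 0 of both genes are of 1 or 2 reads each. NIP3-1, an arsenite-permeable channel, ranged from 0.511 RPKM in OE2 to 0.917 in MI3, and NIP7-1, an anther gene, from 0.137 in OE2 to 0.239 in OE1. NIP1-2, an aluminium malate channel of the root, was compared and was at 4.48 RPKM in OE1, 4.18 in OE2, 4.44 in OE3, 4.53 in MI12 and 5.80 in MI3, against 5.12 RPKM in WT, all within 1.5-fold of WT.

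PIP2-2 and PIP2-3 lie side by side on chromosome 2, and their coding sequences differ at 45 of 858 aligned bases, which is 94.8% identity. Of the windows of 50 coding bases, 27.1% of PIP2-2 and 31.4% of PIP2-3 are found unchanged in the other gene, so reads there could be assigned to either. The next closest pair, NIP4-1 and NIP4-2, had 88.1% identity. The gap-free stretch of 60 coding bases with the most differences is shown because it is where reads of the copies can be told apart, with the 10 differing bases in capitals.
PIP2-2, chr2:15614198-15614257, minus strand: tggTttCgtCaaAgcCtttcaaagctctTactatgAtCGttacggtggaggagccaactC
PIP2-3, chr2:15618313-15618372, plus strand: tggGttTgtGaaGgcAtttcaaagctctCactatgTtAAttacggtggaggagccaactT
The level of PIP2-2 was between 2.28 (WT) and 2.90 times (OE3) that of PIP2-3. Without this pair, 7 of 26 members were at least 1.5-fold lower in OE1, with a background of 3.83%.

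The 250 bases before the annotated start of each gene were searched on both strands for ACGTG, the core of abscisic acid response elements and light-response G-boxes, for the G-box CACGTG, which contains ACGTG, and for GNATATNC, the site of the phosphate starvation regulator PHR1. ACGTG was present in 4 of 35 aquaporin windows (TIP1-1, TIP3-1, TIP5-1 and SIP1-1) and in 21.6% of 32818 such windows of listed genes. CACGTG was in 0 of 35, with 5.83% of all windows, and GNATATNC in 2 of 35 (PIP2-4 and TIP2-2), with 5.25%. The windows of TIP1-1 and TIP2-2 are shown, as both genes were among the 8 below WT in OE1, with the match in capitals (TIP1-1 ACGTG, with the strand shown carrying its complement; TIP2-2 GNATATNC).
TIP1-1, chr2:15445044-15445293, plus strand: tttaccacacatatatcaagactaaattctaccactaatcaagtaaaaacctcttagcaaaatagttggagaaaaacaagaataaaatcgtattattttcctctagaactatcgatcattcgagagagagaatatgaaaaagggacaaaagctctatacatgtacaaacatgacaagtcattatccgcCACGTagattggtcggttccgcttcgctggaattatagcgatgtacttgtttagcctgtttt
TIP2-2, chr4:9698690-9698939, plus strand: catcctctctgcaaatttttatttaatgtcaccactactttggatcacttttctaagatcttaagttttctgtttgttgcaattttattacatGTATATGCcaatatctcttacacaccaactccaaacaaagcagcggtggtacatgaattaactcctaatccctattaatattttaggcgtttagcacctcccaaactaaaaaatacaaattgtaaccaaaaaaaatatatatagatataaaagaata
The 8 members thus share none of these letter patterns in this window, and 6 of them hold no match at all. A match is a description of the letters and not of a bound site.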

How the data were processed

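RNA of whole seedlings was sequenced, and the authors deposited RPKM values (reads per kilobase of gene and mega-read) in 1 table with 6 columns, 1 per genotype. Reads were placed on release 10 of TAIR, per the submitters' processing notes. Aligner, counter and the way of joining a genotype's libraries were not given in the sources used here. The 1 WT cell without a number was set to 0. The RefSeq annotation of TAIR10.1 held 32835 of the identifiers.

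Read totals were recovered from the steps of the low values. With the genomic span as gene length, 63.2% to 65.7% of these lay within 0.1 of a whole number of reads, against 20% by chance. For intron-rich genes (span over 1.3 times the exonic length) the share was 57.1% to 62.5% with the span and 14.8% to 18.2% with the exonic length, so levels are read as per kilobase of span.

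Differences were taken on the log2(RPKM + 1) scale for genes with 1 RPKM or more in 2 columns. The comparisons were each line against WT, OE3 against MI3, and MI12 against the mean log2 level of OE1 and OE2. Limma, planned for 1 value per library, could not be run. Members that reach 5 RPKM in a column or are 1.5-fold apart in a comparison have their values in every genotype printed. Of a list, at most 4 members past 1.5-fold were named by size of difference, and SCR, SHR and BOR1 were added after their values were seen. The members and the gene lists were chosen with earlier results of these data known. Alternatives changed the pseudocount, the filter, the scaling and the control. The scripts were tested on simulated data, in Python 3.11.15 with pandas 2.3.3, numpy 2.4.6, scipy 1.17.1 and matplotlib 3.10.9.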

Additional observations from a re-analysis of the deposited data

How the results depend on the processing

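No paired analysis was possible because the table holds 1 column per genotype and no replicate numbers, and leaving out a replicate was not run for the same reason. In OE1, the count of aquaporins at least 1.5-fold lower was 7 or 8 under every alternative run, but its members changed: TIP1-2 was lost with median-of-ratios scaling, and with the remaining 4 lines as control 6 were shared, TIP1-2 and TIP2-2 were lost and NIP2-1 and PIP2-2 entered. The background for this count ran from 2.29% with no filter on low values to 6.66% with a pseudocount of 0.1. With a pseudocount of 0.1, the members at least 1.5-fold higher were 1 in OE1, 1 in OE2, 3 in MI12, 5 in MI3 and 4 in OE3 against MI3, and 5 were lower in MI3. The background was then 2.32%, 2.22%, 2.19%, 12.1% and 4.27% higher, in that order, and 7.77% lower in MI3. With a pseudocount of 0.5, the members higher were 1 in OE1, 1 in OE2, 3 in MI12 and 2 in OE3 against MI3, and 5 were lower in MI3. Here the background was 1.78%, 1.75%, 1.52% and 3.62% higher, in that order, and 6.96% lower in MI3. With median-of-ratios scaling, 1 was higher in OE3, 5 were lower in MI3, and 1 was lower in OE3 against MI3, with backgrounds of 2.03%, 7.43% and 4.36%. When the remaining 4 lines served as control (their median), the members higher were 1 in OE2, 1 in OE3 and 7 in MI3, and 1 was lower in MI12. For this control the background was 1.70%, 2.07% and 9.40% higher, in that order, and 1.69% lower in MI12. With a filter of at least 5 RPKM, 1 was lower in OE3 against MI3, with a background of 4.41%. Without members that overlap another gene, an alternative chosen after seeing the data, 1 was lower in MI3, and 0 were higher and 0 lower in OE3 against MI3. The backgrounds there stayed at 6.31%, 3.03% and 4.71%. Other causes of these shifts were not tested. Of 168 alternative values for the 23 called member values, 159 stayed past 1.5-fold, 9 fell short of it and 0 changed sign. Most of the 159 could not have fallen short, so their number is no measure of stability. The filters and removals leave a difference as it is, and members they drop are not counted. A smaller pseudocount only enlarges a difference, so only the scaling and the control could lose a call. Those 9 were, with median-of-ratios scaling, TIP1-2 in OE1, PIP2-4 in OE3, NIP1-1 in MI3, NIP6-1 in OE3 against MI3 and TIP2-2 in MI12 against the overexpressor mean, and, with the remaining lines as control, TIP1-2 and TIP2-2 in OE1, PIP2-4 in OE3 and PIP1-3 in MI3. Leaving PYK10, or PYK10 and PHT1-1, out of the root tissue marker sum was also chosen after seeing the data, and put MI3 at 159% and 113% of WT.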

Other observations

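Levels of related members did not keep a fixed ratio across genotypes, given here as values with no test. The plasma membrane channel PIP2-1 stood at 0.467 times the level of PIP2-7 in OE1, 0.447 in OE2, 0.611 in OE3, 0.527 in MI12 and 1.18 in MI3, against 0.557 in WT, so PIP2-1 was above PIP2-7 in MI3 and below it in the other genotypes. The vacuolar TIP2-1 was at 8.04 times TIP2-2 in OE1, 8.89 in OE2, 7.73 in OE3, 7.11 in MI12 and 4.80 in MI3, against 7.03 in WT. TIP2-2 was at 12.5 times TIP2-3 in OE1, 11.1 in OE2, 8.21 in OE3, 5.82 in MI12 and 10.6 in MI3, against 10.09 in WT. NIP1-1 was at 1.31 times NIP1-2 in OE1 and 4.08 times in OE3, the ends of its range, against 2.09 in WT.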
